A study of Mus musculus with 6 samples.

Results

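Cxcl12 and its receptors Cxcr4 and Ackr3 were examined in motor neurons of the mouse lumbar spinal cord. The members were the array rows whose single gene symbol was one of these 3 names, with 1 row per gene, and each gene had exactly 1 row. They make up 3 of the 14860 genes that could be named on the array. The cells came from embryos on embryonic day 12 that carried the HB9::GFP transgene (line mHB9-Gfp1b), in which the promoter of the motor neuron gene Mnx1 drives green fluorescent protein. Lumbar columns were dissected, dissociated and sorted for fluorescence, which gave 3 medial samples and 3 lateral samples. All 6 samples share the transgene, the age and the sort, and differ by label only in the column. The titles call the samples of each column biological replicates. Nothing in the labels says whether these came from separate litters. Each p-value therefore reflects only the spread among these arrays, which may be partly technical.

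Cxcl12 is a secreted chemokine, a small protein that directs the movement of cells and growing axons. Cxcr4 is the receptor through which it signals, by inhibitory G proteins. Ackr3, once called Cxcr7, binds the same ligand, does not signal through G proteins in the usual way, recruits arrestins and takes the ligand out of the surroundings, which sets how much is left for Cxcr4. In the mouse embryo Cxcl12 is made by the mesenchyme around the ventral spinal cord, and Cxcr4 on ventrally exiting motor neurons keeps their axons on the ventral route out of the cord. The comparison asked whether ligand and receptors differ between the medial column, which innervates muscles along the spine, and the lateral column, which innervates the limb.

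None of the 3 genes passed the test between columns, at an adjusted p of 0.05 over all 23332 rows in limma. Cxcl12 and Ackr3 stood higher in every medial sample than in any lateral sample, at 1.29-fold and 1.50-fold on the group means, and 2 of the 3 genes had an unadjusted p under 0.05. Cxcr4 had group means of 5.22 and 5.13, and its groups overlapped. All 3 genes lay in the range of levels that genes of other tissues had on these arrays, so the files do not show whether any of them was above background. For scale, 3.07% of all rows passed the test in either direction, 6.72% were higher in the medial samples at an unadjusted p under 0.05, and in 10.2% every medial value lay above every lateral value. In either direction, 19.3% of rows had groups that did not overlap. Of the rows that passed, 264 had the larger mean in medial neurons and 453 in lateral neurons. The share of all rows with a lower medial mean at an unadjusted p under 0.05 was not counted. Counts of lower genes at that threshold, given below for the lists, therefore have no such scale.

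The ligand Cxcl12 measured 6.07, 5.88 and 6.12 on the deposited log2 scale in medial replicates 1, 2 and 3. In lateral replicates 1, 2 and 3 it measured 5.67, 5.55 and 5.74. The lowest medial sample lay 0.14 above the highest lateral sample, a gap smaller than the 0.23 by which the medial samples differed from each other. The medial mean was 6.02 ± 0.12 and the lateral mean 5.65 ± 0.10 (SD, n = 3 each). The log2 difference, medial minus lateral, was 0.37 ± 0.10 (SE), with a 95% interval from 0.13 to 0.60 and an adjusted p of 0.146. In fold terms the interval runs from 1.10 to 1.52. An exact two-sided permutation test over the 6 samples gave p = 0.10, the smallest value that 3 samples against 3 allow.

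The scavenging receptor Ackr3 measured 7.08, 6.92 and 7.38 in medial replicates 1, 2 and 3. It measured 6.55, 6.37 and 6.70 in lateral replicates 1, 2 and 3. Again the groups did not overlap, with a gap of 0.21 between them and a range of 0.47 within the medial samples. The group means were 7.12 ± 0.24 and 6.54 ± 0.17 (SD, n = 3 each). The log2 difference was 0.59 ± 0.15 (SE), with a 95% interval from 0.23 to 0.94, or 1.17-fold to 1.92-fold. Its adjusted p was 0.126, and the exact permutation test again gave p = 0.10. This was the 1 member whose call depended on which rows were tested. With 1 row per gene (14860 rows, 6.17% called) its adjusted p was 0.0406, and with rows at or above the median level of all rows (11666 rows, 7.35% called) it was 0.0479, while its difference stayed at 0.59.

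The signalling receptor Cxcr4 measured 4.96, 5.62 and 5.08 in medial replicates 1, 2 and 3. It measured 5.09, 5.14 and 5.15 in lateral replicates 1, 2 and 3. The lateral samples lay within 0.05 of each other, and the medial samples spread over 0.66 because medial replicate 2 stood above the rest. The medial mean was 5.22 ± 0.35 and the lateral mean 5.13 ± 0.03 (SD, n = 3 each). The log2 difference was 0.10 ± 0.17 (SE), with a 95% interval from −0.32 to 0.51, which leaves room for anything from 0.799-fold to 1.43-fold. The adjusted p was 0.892 and the exact permutation test gave p = 1.0. Without medial replicate 2 the difference was −0.11 ± 0.09 with an adjusted p of 0.697, so that 1 sample set its sign.

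**Figure D1:**
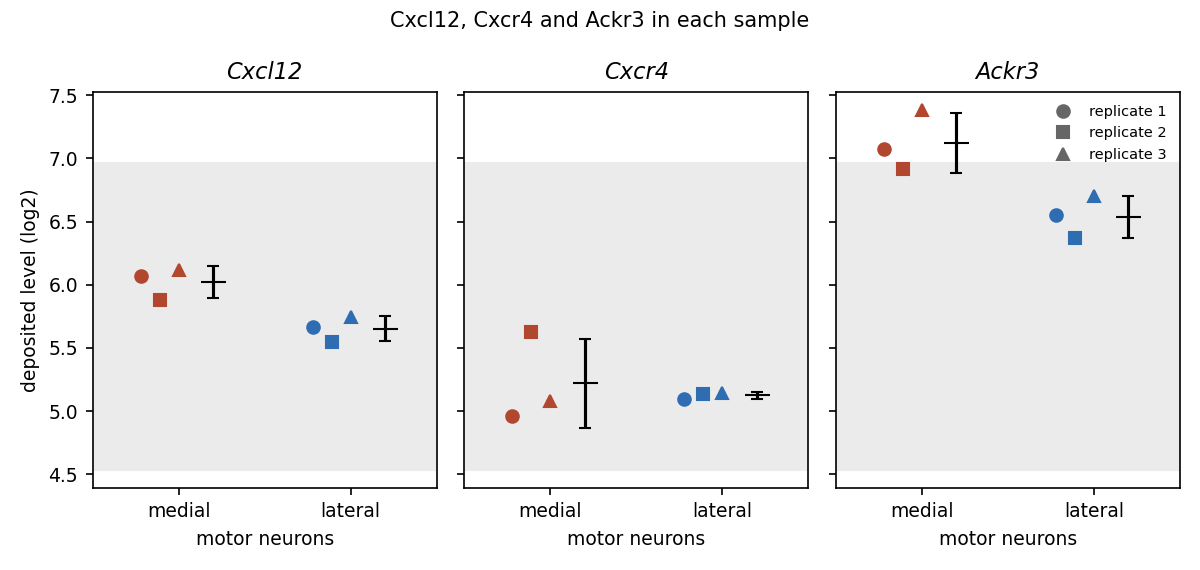
Deposited log2 level of Cxcl12, Cxcr4 and Ackr3 (vertical axis) in 3 medial and 3 lateral samples, with the symbol giving the replicate number, black bars the mean ± SD over 3 samples, and grey the span of mean levels of 16 skeletal muscle genes, from 4.54 to 6.96. Medial and lateral values are apart for Cxcl12 and Ackr3 and overlap for Cxcr4, where medial replicate 2 at 5.62 stands above the other 5 samples.

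Cxcl12 and Ackr3 shared an order of samples beyond the difference between columns. In both genes and in both columns, replicate 2 was the lowest and replicate 3 the highest. How many other rows had this order was not counted, so it is not shown to be particular to Cxcl12 and Ackr3. Cxcr4 had medial replicate 2 as its highest sample. A row's level depends on its own probes, so the levels of the 3 genes do not say which protein or transcript was more abundant.

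The levels were set beside those of genes of other tissues, since the table has no detection calls. The 16 measured skeletal muscle genes had mean levels from 4.54 to 6.96 on the log2 scale, with a median of 5.92. The mean over all 6 samples was 5.17 for Cxcr4, which 13 of the 16 muscle genes equalled or exceeded. It was 5.84 for Cxcl12, which 9 of 16 equalled or exceeded, and 6.83 for Ackr3, which 1 of 16, the calcium release channel gene Ryr1, exceeded. Among 35 genes of skeletal muscle, endothelium, and blood and myeloid cells, the medial mean of Ackr3 was exceeded by 2, and Hba-x, an embryonic globin gene, had the highest mean over all samples at 7.42. Of the muscle genes, 0 were higher and 1 was lower in the medial samples, the actinin gene Actn2 at −0.41 ± 0.08, a call lost in all 6 fits with 1 sample omitted (adjusted p from 0.0837 to 0.170). A fold of a row near background may be compressed, or may be a difference in background alone. Neither was tested for the members. By contrast, the 8 motor neuron markers, of which 2 passed as higher and 3 as lower in medial neurons, had mean levels from 9.23 to 12.3, among them Chat and Slc18a3, which serve acetylcholine synthesis and storage. Mnx1, whose promoter drives the sorted fluorescence, was 1 of the 2 higher, at 2.67-fold (adjusted p = 0.00102 in limma). Whether the sort took the same share of cells from each column was not tested. All 6 column markers passed, 3 in each direction, and separated the samples as labelled, with Lhx3, a medial column factor, 9.41-fold higher in the medial samples and Foxp1, a lateral column factor, 8.01-fold higher in the lateral samples.

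Among the other chemokine ligands, 32 of 36 listed genes had a row, and 1 was higher and 0 lower in the medial samples in limma at an adjusted p of 0.05, with 2 higher and 1 lower at an unadjusted p under 0.05. Their median log2 difference was −0.03, against 0.02 for all rows. The gene that rose was Ccl25, a ligand of Ccr9 that draws lymphocytes to thymus and gut. It measured 7.07, 6.85 and 7.02 in the medial samples and 6.57, 6.30 and 6.30 in the lateral samples, and these groups did not overlap. Its log2 difference was 0.59 ± 0.11 (SE, n = 3 each) with an adjusted p of 0.0480. The size was that of Ackr3, with a smaller spread between samples. The call of Ccl25 survived only the omission of lateral replicate 1 among the 6 omissions of 1 sample, and was otherwise lost with adjusted p-values up to 0.188.

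The ligands with a mean above that of the highest muscle gene were Ccl28 and Cx3cl1. Ccl28, a chemokine of mucosal surfaces, had a log2 difference of 0.46 ± 0.15 and an adjusted p of 0.227, with groups that did not overlap. Cx3cl1, the membrane-bound chemokine fractalkine that neurons present to microglia, had means of 7.71 ± 0.30 in the medial and 7.84 ± 0.06 in the lateral samples (SD, n = 3 each). Its groups overlapped.

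Among the other chemokine receptors and related genes, 20 of 22 had a row and 0 passed in limma in either direction. At an unadjusted p under 0.05, 0 were higher and 1 was lower. That 1, named after its value was seen, was Ccr7, a receptor that guides lymphocytes to lymph nodes, at −0.36 ± 0.11 with an adjusted p of 0.217. Of these 20 genes, 2 lay above the highest muscle gene. Cx3cr1, the fractalkine receptor of microglia, did so by a margin under 0.01 at 6.97, and its log2 difference was −0.18 ± 0.21. Ackr1, an atypical receptor of red blood cells and endothelium that binds many chemokines, had means of 10.3 in the medial and 10.4 in the lateral samples, between 10.2 and 10.5 in every sample. The gene overlaps the neuronal adhesion gene Cadm3 in the RefSeq annotation of assembly GRCm38.p6, and the row of Cadm3 had a mean of 10.96. Whether the Ackr1 row holds signal from Cadm3 was not tested.

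**Figure D2:**
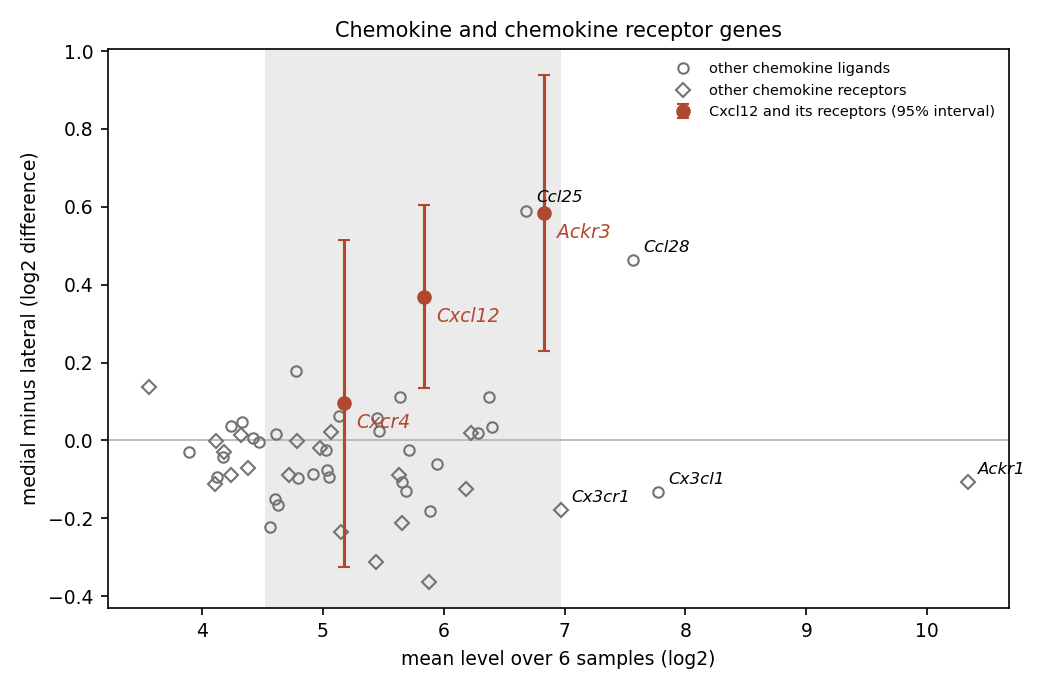
Log2 difference, medial minus lateral (vertical axis), against mean log2 level over 6 samples (horizontal axis) for 32 other chemokine ligands (circles), 20 other receptors and related genes (diamonds), and Cxcl12, Cxcr4 and Ackr3 (red, with 95% intervals). Grey marks the span of muscle gene levels, from 4.54 to 6.96, and Ccl25 at 0.59 is the 1 gene of the figure that passed the test.

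Genes of the machinery that carries or limits the signal of Cxcr4 inside the cell were read in 2 lists, and 1 gene of each passed. The share that passed was 3.07% among all rows, which include rows without a gene name. Of 17 measured genes for G protein subunits, receptor kinases, arrestins and regulators, 0 were higher and 1 was lower in the medial samples, and the median log2 difference was 0.03. At an unadjusted p under 0.05, 0 were higher and 3 lower. Whether 3 of 17 exceeds the share of lower genes among all rows was not tested. The inhibitory subunit genes Gnai2 and Gnai3 differed by 0.11 ± 0.08 and 0.10 ± 0.10, and Gnao1, the inhibitory subunit gene typical of neurons, by 0.05 ± 0.07 (log2, SE). Gnaz, a further inhibitory subunit gene, went the other way at −0.25 ± 0.08, with groups that did not overlap and an adjusted p of 0.244. The arrestin genes Arrb1 and Arrb2, whose products bind both receptors, differed by −0.08 ± 0.07 and −0.05 ± 0.09. The receptor kinase gene Grk3, whose product phosphorylates active receptors, differed by −0.32 ± 0.12 with an adjusted p of 0.295. These genes are quoted as those closest to the receptors and were picked with their values known.

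The exception was Rgs4, which encodes a protein that switches off inhibitory G proteins. It measured 6.45, 6.03 and 6.32 in the medial samples and 9.46, 9.05 and 9.10 in the lateral samples. The groups were far apart, and Rgs4 was lower in the medial neurons, by −2.94 ± 0.16 (log2, SE, n = 3 each) or 7.65-fold, with an adjusted p of 6.66e-04. Its medial mean of 6.27 ± 0.22 (SD, n = 3) lay in the range of the muscle genes, and the gene passed in each of the 6 fits with 1 sample omitted. The related regulators Rgs3 and Rgs16 had log2 differences of −0.04 ± 0.08 and 0.16 ± 0.11 and did not pass.

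Of 21 measured kinases, phospholipases, GTPases and their partners downstream, 1 was higher and 0 were lower, with a median log2 difference of −0.03, and at an unadjusted p under 0.05, 2 were higher and 3 lower. Elmo1 encodes part of the complex that activates the GTPase Rac in moving cells. It measured 7.66, 7.47 and 7.47 in the medial samples and 6.71, 7.07 and 6.73 in the lateral samples, without overlap. It rose in the medial neurons by 0.70 ± 0.12 (log2, SE, n = 3 each) or 1.62-fold, with an adjusted p of 0.0392, a call that survived the omission of lateral replicate 2 and no other single omission, with adjusted p-values up to 0.138. Rac1 itself differed by −0.02 ± 0.07. Of the genes that did not pass, 3 named after their values were seen had an unadjusted p under 0.05 and a lower medial mean. They were the phospholipase genes Plcb3 and Plcb4, at −0.36 ± 0.08 and −0.44 ± 0.11, and Stat3, a transcription factor of cytokine signalling, at −0.36 ± 0.09. Their adjusted p-values were 0.0817, 0.132 and 0.103. With 1 row per gene the count for this list rose from 1 to 4, in a fit that called 6.17% of all genes.

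Proteins outside the cell cut Cxcl12 or hold it on heparan sulfate. The list read here also held the heparan sulfate synthesis genes Ext1, Ext2 and Hs2st1, and Hmgb1. Of its 12 measured genes, 1 was higher and 0 were lower, and the median log2 difference was −0.03. At an unadjusted p under 0.05, 1 was higher and 2 were lower, and the groups did not overlap for 1 higher and 4 lower genes. Among all rows, the groups did not overlap in 19.3% in either direction. The like counts were 2 higher and 3 lower for the 17 genes of G protein and receptor regulation. They were 5 higher and 4 lower for the 21 genes downstream. Mmp2 encodes a secreted metalloproteinase that can cleave Cxcl12. It measured 9.45, 9.36 and 9.58 in the medial samples and 8.55, 8.76 and 8.25 in the lateral samples. The groups did not overlap and Mmp2 rose in the medial neurons by 0.94 ± 0.14 (log2, SE, n = 3 each) or 1.92-fold, with an adjusted p of 0.0215. The call was lost without medial replicate 1, 2 or 3 and without lateral replicate 1, with adjusted p-values up to 0.0976. Mmp9, a second metalloproteinase gene of the list, went the other way at −0.34 ± 0.11, with groups that did not overlap and an adjusted p of 0.245. Dpp4, the peptidase that removes the active end of Cxcl12, stood at a mean of 3.86, the lowest of these 12 rows, and differed by −0.06 ± 0.07. The syndecan gene Sdc3, a neuronal carrier of heparan sulfate and the brightest row of the list, differed by −0.33 ± 0.08 with an adjusted p of 0.124.

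**Figure D3:**
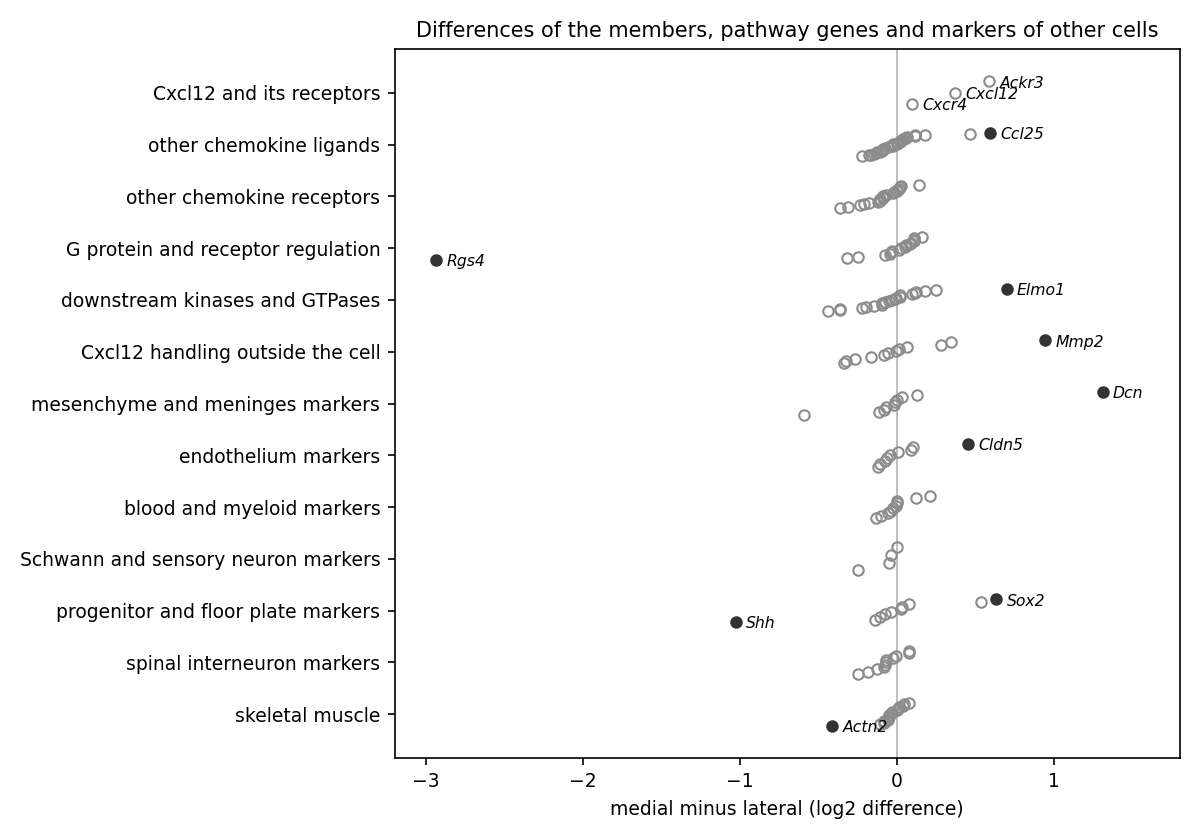
Log2 difference, medial minus lateral (horizontal axis), of each measured gene of 13 lists (rows), with filled symbols for genes that passed an adjusted p of 0.05. Rgs4 at −2.94 lies farthest to the lateral side and the mesenchyme marker Dcn at 1.31 farthest to the medial side, Mmp2 and Elmo1 lie at 0.94 and 0.70, and Cxcl12, Cxcr4 and Ackr3 are open.

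Since Cxcl12 is made by mesenchyme, and Cxcr4 and Ackr3 are also known from vessels and Cxcr4 from blood cells, markers of those cells were read beside the members. Of 10 mesenchyme and meninges markers, 1 was higher and 0 were lower, and at an unadjusted p under 0.05, 1 was higher and 1 lower. Dcn, which encodes the matrix proteoglycan decorin, measured 6.30, 6.38 and 7.09 in the medial and 5.55, 5.04 and 5.25 in the lateral samples, with an adjusted p of 0.0424. The opposite one was Prrx1, a transcription factor gene of limb mesenchyme, at −0.59 ± 0.18 with an adjusted p of 0.208 and groups that did not overlap. The collagen genes Col1a1 and Col3a1 differed by −0.08 ± 0.11 and −0.07 ± 0.11, and Pdgfra by −0.01 ± 0.07; markers quoted here without a call were picked with their values known. The summed linear signal of the list ran from 888 to 1019 in the medial and from 904 to 1038 in the lateral samples, so the groups overlapped. Such a sum is weighted to the brighter rows of a list, here Col1a1 at a mean log2 level of 7.26 over Dcn at 5.93. It therefore says little about a dim row, and does not show that the columns held equal shares of these cells.

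Of 9 endothelium markers, 1 was higher and 0 were lower. Cldn5, a tight junction gene of vessels, differed by 0.45 ± 0.07 with an adjusted p of 0.0272, while Pecam1 and Cdh5 differed by −0.12 ± 0.07 and −0.11 ± 0.09 at mean levels of 5.02 and 4.71. The summed signal of the list was 435 to 454 in the medial and 415 to 467 in the lateral samples. Of 10 blood and myeloid markers, 0 passed in limma in either direction and 0 had an unadjusted p under 0.05, with sums of 474 to 525 and 487 to 501. Of 4 Schwann and sensory neuron markers and of 11 interneuron markers, 0 passed in limma and 0 had an unadjusted p under 0.05 as well. The sums were 381 to 432 and 376 to 466 for the former, and 1225 to 1405 and 1193 to 1594 for the latter, in medial and lateral samples. The array values of a marker are never 0, so none of these lists shows that a cell type was absent.

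Among 10 progenitor and floor plate markers, 1 was higher and 1 was lower in the medial samples, with summed signals of 8732 to 9245 and 8883 to 9502 in medial and lateral samples. Most of each sum came from Vim, with a mean log2 level of 12.9 and a difference of −0.04 ± 0.07. The sums therefore say little about the other genes of the list. The progenitor factor gene Sox2 measured 6.22, 6.22 and 6.49 in the medial and 5.69, 5.80 and 5.55 in the lateral samples, with an adjusted p of 0.0376. Shh, a signal of the floor plate that motor neurons also make, was 2.04-fold higher in the lateral samples. Dcn, Cldn5 and Sox2 each lost their call whichever sample was left out. Their part in the values of Cxcl12 and Ackr3 was not tested, and in sorted bulk samples fewer cells of a type and less RNA per cell cannot be told apart.

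The genes whose 6 values followed each member most closely were ranked among 14404 others by the root mean square difference between their deviations from their own means, in log2 units. For Cxcl12 they were Mcm2, Cstf2t, Irak3, Mxd1 and Cep120, at 0.03 to 0.05, where Cxcl12 itself deviated from its mean by 0.21. For Ackr3 they were Rftn2, Ehd3, C1ql1, Gdpd3 and Mterf2, at 0.07 to 0.09, against its own 0.34. For Cxcr4 they were Olfr655, Il17f, C5ar2, Rab20 and Pxt1, at 0.05 to 0.09, against 0.21. Of these 15 genes 0 passed the test in limma, and 6 samples are few for a ranking of so many genes, so the likeness is a description of these arrays. A gene with flat values would lie as far from a member as the member's own deviation. Of the 14404 genes, 5832 lay closer than that to Cxcl12, 6832 to Ackr3 and 2853 to Cxcr4.

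Over all 12 alternative fits in which it was measured, the difference of Cxcl12 stayed between 0.32 and 0.44, with adjusted p-values from 0.0577 to 0.399. For Ackr3, over 13 fits, the difference ran from 0.46 to 0.69 and the adjusted p from 0.0406 to 0.319. The difference of Cxcr4 ran from −0.11 to 0.23 over 12 fits, and 0 of them called it in limma.

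**Figure D4:**
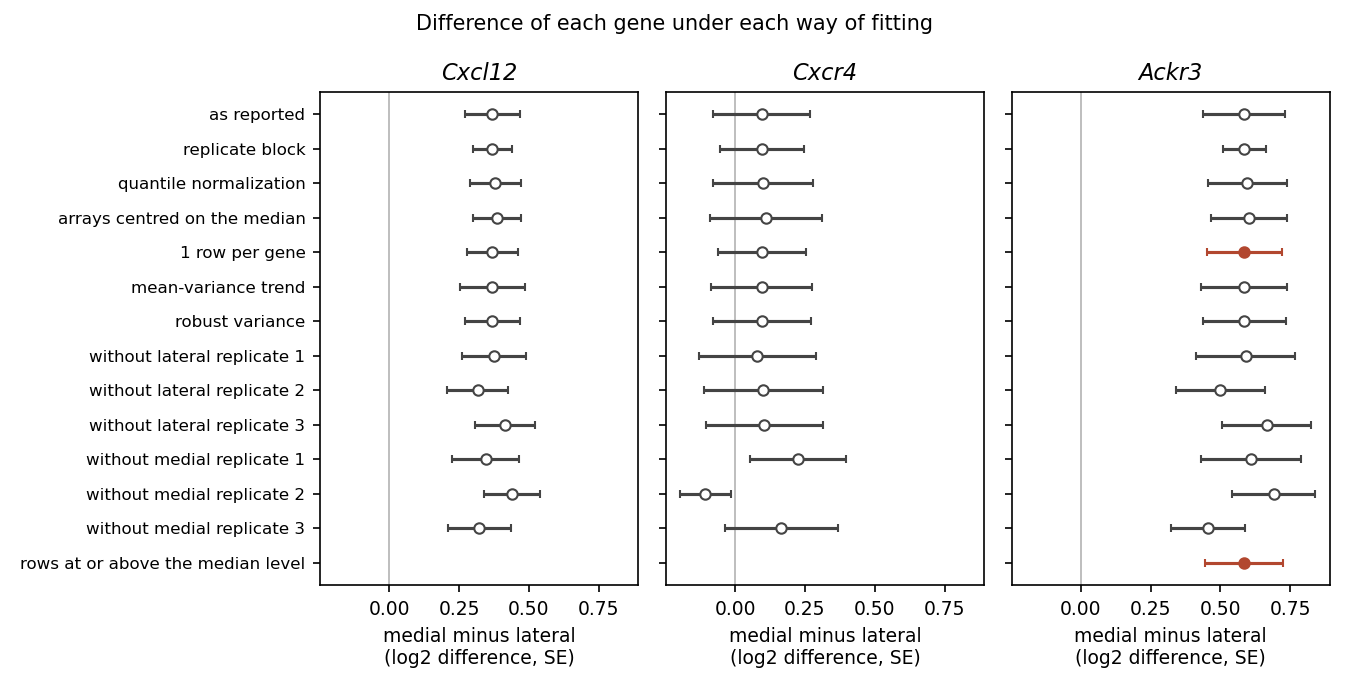
Log2 difference ± SE, medial minus lateral (horizontal axis), of Cxcl12, Cxcr4 and Ackr3 in the reported fit and each alternative (rows), with filled red symbols where the adjusted p was under 0.05. Ackr3 is filled in 2 rows, and Cxcl12 and Cxcr4, which fall below the median level, have no value in the last row.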

How the data were processed

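Per the labels' protocols, total RNA of the sorted cells was fragmented and biotinylated with a whole-transcript kit, and each sample had 1 array. The authors deposited 1 table of log2 values, 23332 rows by 6 samples, from 2.49 to 14.1. The log2 unit was read from that range. Summarization, background correction and normalization are not given in the sources used here, so their effect, such as compressed folds of dim rows, is unknown. The submitters' processing notes name mm9 as the build. Array medians lay between 6.73 and 6.84, samples of a group correlated with r from 0.987 to 0.993, and no 2 samples had more than 7 values in common. The number of arrays limits the precision.

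Groups and replicate numbers came from the titles. Names came from the platform's probe table, in which 14996 rows had 1 symbol, 1019 several and 7317 were not listed. Of the 14996, 14941 took a current symbol from RefSeq (GRCm38.p6) by Entrez identifier. The row with the highest mean stood for a gene. limma 3.58.1 in R 4.3.3 (lmFit, eBayes, two-sided, no block) was fitted to all rows, with Benjamini-Hochberg adjustment over them and a threshold of 0.05. The fit was also run on simulated data with independent noise, as a check of the code. Its added shifts were larger than the difference of any member, so it does not bear on the members. The series design states no pairing, so the replicate numbers were not taken as pairs and the block is given as an alternative. Same-numbered samples deviated together with r of 0.35, 0.07 and 0.02, which does not settle whether they were pairs.

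The members, gene lists and tests were chosen with earlier results of these data known. The naming rule took the members, called list genes, the 2 brightest of each marker list and of other lists with no call, and the 5 genes most like each member. The text does not print every gene that the rule took. It also quotes genes outside the rule, which were picked with their values known. Alternatives covered the replicate block, quantile normalization, median centring, a level filter, 1 row per gene, the variance model, the 1.5-fold requirement of the series design and each left-out sample. PowerExpress, which that design names, was not run.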

Additional observations from a re-analysis of the deposited data

How the results depend on the processing

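Of the alternatives that kept all samples, Ackr3 passed in 2, with 1 row per gene (difference 0.59, adjusted p = 0.0406) and with rows at or above the median level (0.59, adjusted p = 0.0479). Both tested fewer rows. Cxcl12 and Cxcr4 passed in none of theirs, and the level filter removed both. With the replicate number as a block the differences stayed at 0.37, 0.10 and 0.59 for Cxcl12, Cxcr4 and Ackr3, with adjusted p-values of 0.112, 0.829 and 0.0537. Their SEs were 0.07, 0.15 and 0.08 with the block, against 0.10, 0.17 and 0.15 without it. The count of rows called fell from 717 to 481 with this block, and medial replicate 2 deviated most like lateral replicate 3. With a sample left out the count ran from 326 to 538, lowest without medial replicate 3, and was 407, 361 and 377 without lateral replicate 2, medial replicate 1 and medial replicate 2. The members' differences then ran from 0.32 to 0.44 for Cxcl12, from −0.11 to 0.23 for Cxcr4 and from 0.46 to 0.69 for Ackr3, and 0 of the 3 passed in these limma fits. With the block, Ccl25, Elmo1, Mmp2, Dcn, Cldn5, Sox2 and Actn2 had adjusted p-values of 0.0627, 0.11, 0.0899, 0.0945, 0.0923, 0.127 and 0.116, and Rgs4 and Shh kept their calls. Requiring 1.5-fold left 628 rows. The causes were not tested. Cxcl12 and Cxcr4 lay below the median level of all rows, 6.78, and Ackr3 lay just above it at 6.83. Without detection calls, differences of rows in the range of genes of other tissues cannot be told from differences in background.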
